A study of Mus musculus with 3 samples.

Results

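Microglia keep their identity through a small set of transcription factors, and 7 of them are described here: Sall1, Maf, Mef2a, Mef2c, Runx1, Cebpa and Bhlhe41. They were chosen by name, and each symbol matched 1 row of the 27998 genes in the deposited table of unique molecular identifiers (UMIs, which count transcripts). The cells were Cx3cr1-YFP (+) cells of the lumbar spinal cord, sorted by FACS from young adult Cx3cr1-creER-yfp/+ heterozygous mice (strain label C57BL/6) and sequenced by droplet-based scRNA-Seq. One library came from naive animals, one from animals 24 h after sciatic nerve transection and one from animals 48 h after it, each a pool of 3 animals. YFP is driven by the Cx3cr1 promoter, so every group lacks 1 intact Cx3cr1 allele, and per the methods the sorted cells were held in serum-free medium with TGF-β2, IL-34 and cholesterol. The cells of the libraries differ in a barcode suffix of 1, 2 or 3, and no source used here says which time point a suffix stands for, so values are given for library 1, 2 and 3 without a time.

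Sall1 is a zinc finger repressor that is nearly confined to microglia among macrophages, and its loss lets microglia take on features of other macrophages. Maf is a basic leucine zipper factor of mature macrophages, Mef2a and Mef2c are MADS-box factors whose binding elements are common in microglia enhancers, and Runx1 is a runt-domain factor of blood and microglia development. Cebpa is a basic leucine zipper factor that sets myeloid fate together with PU.1, and Bhlhe41 is a basic helix-loop-helix repressor that binds the E-box.

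Library 1 held 609 cells with a median of 2218 UMIs per cell, library 2 held 3591 cells with a median of 5952, and library 3 held 3322 cells with a median of 5742. At least 3 of the 9 microglia markers were found in 7521 of 7522 cells, and no cell carried 3 or more of the monocyte or of the perivascular macrophage markers. At least 3 oligodendrocyte markers were found in 6 cells, red blood cell markers in 5, and T or NK cell and neutrophil markers in 1 cell each. As such cells were too few to form a group that should lack these factors, the level that free RNA alone would give was not measured. The libraries stood apart in other genes too. The 18 immediate early genes (Fos, Jun, Egr1 and the like, induced within minutes of a stimulus) summed to 2932, 3515 and 30951 UMIs per 1000000 UMIs (CPM) in libraries 1, 2 and 3, and 6 heat shock genes to 128, 302 and 846 CPM. Dividing cells, defined below, made up 1.72%, 52.4% and 4.48% of the cells with at least 2000 UMIs. There was 1 library per suffix, so no test between libraries was made; intervals are 95% and cover counting error only, and a ratio is called where it passes 1.5-fold.

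In GENCODE M21 on GRCm38 the genes lie at chr8:89027235-89044162 (Sall1, ENSMUSG00000031665), chr8:115682942-115707794 (Maf, ENSMUSG00000055435), chr7:67231163-67372858 (Mef2a, ENSMUSG00000030557), chr13:83504034-83667080 (Mef2c, ENSMUSG00000005583), chr16:92601466-92826149 (Runx1, ENSMUSG00000022952), chr7:35119293-35121928 (Cebpa, ENSMUSG00000034957) and chr6:145858243-145865558 (Bhlhe41, ENSMUSG00000030256). Mef2c and Cebpa are on the plus strand and the others on the minus strand. Another gene of the table overlaps on the opposite strand at Maf (Gm15655), Mef2a (Lysmd4), Runx1 (Gm26626) and Cebpa (Gm45091), and the sources used here do not say how reads of such pairs were divided.

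Cebpa and Runx1 turned out to be the members that were highest in library 3, so the bases before their start sites are shown, with Bhlhe41 for comparison. The sequences are RefSeq windows of 250 bases on GRCm38.p6, written 5′ to 3′ and ending at the base before the start, with motif matches in capitals. Runx1 has 2 start sites far apart, here called distal and proximal. The windows are chr7:35119043-35119292 (Cebpa, plus strand), chr16:92826075-92826324 (distal Runx1, minus strand), chr16:92697330-92697579 (proximal Runx1, minus strand) and chr6:145865421-145865670 (Bhlhe41, minus strand).
Cebpa: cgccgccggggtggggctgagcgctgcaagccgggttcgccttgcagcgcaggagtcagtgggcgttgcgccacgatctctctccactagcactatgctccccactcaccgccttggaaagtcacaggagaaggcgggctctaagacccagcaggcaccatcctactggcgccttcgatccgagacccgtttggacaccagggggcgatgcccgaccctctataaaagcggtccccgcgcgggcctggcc
Runx1 distal: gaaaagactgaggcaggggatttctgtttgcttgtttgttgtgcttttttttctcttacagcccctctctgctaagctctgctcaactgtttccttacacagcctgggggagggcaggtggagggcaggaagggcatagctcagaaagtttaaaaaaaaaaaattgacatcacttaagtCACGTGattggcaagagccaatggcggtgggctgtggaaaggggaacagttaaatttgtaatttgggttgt
Runx1 proximal: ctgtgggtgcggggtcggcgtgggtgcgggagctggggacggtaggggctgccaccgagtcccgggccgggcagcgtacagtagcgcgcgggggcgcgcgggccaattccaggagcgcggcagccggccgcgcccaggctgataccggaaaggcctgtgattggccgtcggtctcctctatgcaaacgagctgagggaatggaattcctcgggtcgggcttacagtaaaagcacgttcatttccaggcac
Bhlhe41: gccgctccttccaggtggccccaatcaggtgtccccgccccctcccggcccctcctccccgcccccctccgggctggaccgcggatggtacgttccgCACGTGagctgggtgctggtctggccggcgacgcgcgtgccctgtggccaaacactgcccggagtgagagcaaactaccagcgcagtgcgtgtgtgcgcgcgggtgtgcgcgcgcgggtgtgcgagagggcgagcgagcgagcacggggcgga

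On both strands, 7 motifs were searched: the E-box CACGTG, AP-1 TGANTCA, C/EBP TTGCNNAA, RUNX TGTGGT, the MAF site TGCTGA, PU.1 GAGGAAGT and the MEF2 element TAAAAATAG. The only matches in the 4 windows are 1 E-box in the distal Runx1 window, 71 bases before the start, and 1 in the Bhlhe41 window, 153 bases before it. The E-box is found in 6.02% of all 32851 windows of this length, AP-1 in 6.75%, C/EBP in 9.56%, RUNX in 14.0%, the MAF site in 16.1%, PU.1 in 2.44% and the MEF2 element in 0.454%. Over the 11 windows of 6 members, 1 window of Mef2c holds an AP-1 match and a MAF site, which overlap no other match. These matches describe the letters only.

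Sall1, Maf and Mef2a shared a pattern: each was highest in library 1, by 1.67-fold to 2.50-fold over either other library. Sall1 stood at 181, 93.8 and 89.8 CPM in libraries 1, 2 and 3 (intervals 159 to 205, 90 to 97.8 and 85.7 to 94.1). Its level in library 1 was 1.93 times that in library 2 (1.68 to 2.20) and 2.02 times that in library 3 (1.76 to 2.31), whereas libraries 2 and 3 did not differ beyond counting error (ratio of library 3 over library 2, 0.957, 0.899 to 1.02). Sall1 was thus high in 1 library and level in the others.

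Over all cells, Maf fell into the order of library 1, library 2 and library 3, at 595, 304 and 238 CPM, with no overlap of the intervals (554 to 638, 297 to 311 and 232 to 245). Library 1 was 1.96 times library 2 (1.82 to 2.11) and 2.50 times library 3 (2.31 to 2.69), and library 3 was 0.784 times library 2 (0.756 to 0.813), which is short of the fold called. Mef2a was at 602, 336 and 360.0 CPM. The ratio of library 1 was 1.79 to library 2 (1.66 to 1.93) and 1.67 to library 3 (1.55 to 1.80), the latter falling to 1.46 with size factors in place of total UMIs.

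Mef2c, the other MADS-box member, varied far less: 1134 CPM in library 1, 887 in library 2 and 995 in library 3. No pair of libraries passed 1.5-fold, the widest being library 1 over library 2 at 1.28 (1.21 to 1.35). Bhlhe41 was the most even member, at 200.3, 176 and 179.9 CPM, and its 3 ratios ran from 1.02 to 1.14, with 1 inside the interval of libraries 1 and 3 (1.11, 0.980 to 1.26) and of libraries 3 and 2 (1.02, 0.976 to 1.07).

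Runx1 and Cebpa were the members that were highest in library 3. Runx1 was at 119.9 CPM in library 1, 116 in library 2 and 221 in library 3, with overlapping intervals in the first pair (102 to 139.9 and 112 to 120.2) and a separate one in library 3 (215 to 228). Library 3 was 1.91 times library 2 (1.82 to 2.0), and library 1 was 0.542 times library 3 (0.460 to 0.634). Cebpa was at 239.8 CPM in library 1, 124 in library 2 and 335 in library 3, none of the intervals overlapping. It was 2.69 times higher in library 3 than in library 2 (2.58 to 2.81), the widest ratio of any member, and 1.93 times higher in library 1 than in library 2 (1.71 to 2.16). Library 1 was 0.716 times library 3 (0.638 to 0.801), short of the fold called, but 0.624 times with size factors, which is past it. Library 3 was also the library in which early genes were high, at 30951 CPM. With these, heat shock, mitochondrial, ribosomal protein, Malat1 and Neat1 genes left out of the totals, its ratio to library 2 was 2.73 for Cebpa and 1.94 for Runx1.

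**Figure D1:**
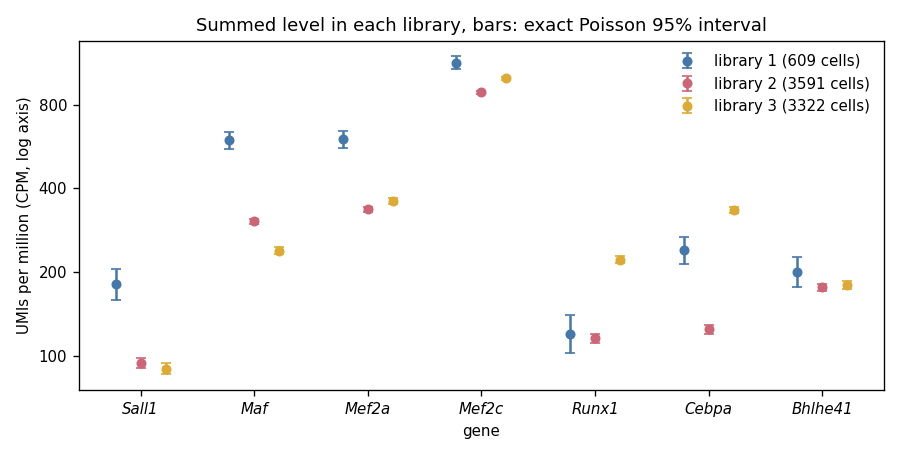
Level of each factor, in UMIs per 1000000 on a log axis, in libraries 1, 2 and 3 (points) with exact Poisson 95% intervals (bars). Sall1, Maf and Mef2a are highest in library 1, Runx1 and Cebpa in library 3, and Mef2c and Bhlhe41 stay within 1.5-fold.

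Read against all genes, 4 of the 7 members were called higher in library 1 than in library 2 and 0 lower, where 12.9% of 6018 genes of at least 20 CPM were higher and 14.2% lower. The median log2 ratio was 0.84 for the members and 0.03 for all these genes. Between libraries 1 and 3, 3 members were higher in library 1 and 1, Runx1, was lower, beside 14.3% and 12.8% of all genes (median log2 0.19 and 0.03). Libraries 3 and 2 were closer to each other: 2 members, Runx1 and Cebpa, were higher in library 3 and 0 lower, beside 3.34% and 4.54% of all genes (median log2 0.10 and -0.02). These comparisons share libraries, so their counts are not independent.

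Library 1 was the shallowest, and depth moved with some of these levels. The cells of a library with at least 2000 UMIs were split into terciles (3 equal groups) by total UMIs. This left out the 201, 22 and 38 shallowest cells of libraries 1, 2 and 3. Maf was lower in the deepest tercile than in the shallowest in all 3 libraries, by ratios of 0.803 (0.657 to 0.981), 0.739 (0.697 to 0.783) and 0.673 (0.627 to 0.722). The ratio of Mef2a was 0.808, 0.807 and 0.839 and that of Sall1 0.794, 0.848 and 0.820, with 1 inside the interval for Sall1 in library 1. Cebpa was lower in the deepest tercile of library 2, at 0.717 (0.655 to 0.785), the lowest ratio of a member there, and Runx1 was higher in that of library 3, at 1.20 (1.10 to 1.30). Of all tested genes, 29.9%, 2.69% and 0.510% had a lower ratio than Maf in libraries 1, 2 and 3, and 1.80% had a lower one than Cebpa in library 2. The median log2 ratio of all genes was -0.05, 0.00 and -0.01 in the 3 libraries, against -0.31, -0.24 and -0.13 for the members.

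In cells of 2000 to 3500 UMIs (380, 170 and 193 cells, median depths 2456.5, 3019 and 3078) Sall1 was at 198, 80.9 and 103 CPM, a ratio of 2.44 between libraries 1 and 2 (1.73 to 3.53) and of 1.92 between libraries 1 and 3 (1.43 to 2.62). Maf was at 589, 369.9 and 306 CPM, with ratios of 1.59 (1.35 to 1.89) and 1.93 (1.62 to 2.30), smaller than over all cells but still past the fold. Its ratio of library 3 to library 2 was 0.826 (0.668 to 1.02), so these libraries did not differ beyond counting error at this depth. With 175 and 183 UMIs the interval also holds the ratio over all cells, 0.784, so a change with depth is not shown. Mef2a kept its ratio to library 2 (1.70, 1.43 to 2.03) and had 1.39 to library 3 (1.19 to 1.62), below the fold called. For Runx1 the ratio of library 3 to library 2 was 1.24 at this depth (0.906 to 1.69), so its call did not hold there, whereas that of Cebpa was 2.24 (1.64 to 3.10). The ratio of library 1 to library 3 was 0.959 for Cebpa (0.778 to 1.19) and 0.657 for Runx1 (0.499 to 0.867). At this depth Cebpa was therefore not higher in library 3 than in library 1 beyond counting error. Cells this shallow are a small share of libraries 2 and 3. Calls between libraries 3 and 2 were common among all genes at this depth, as counted in the last section. For library 1 that count is not given, so its ratios past the fold here stand without a background.

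The share of cells in which a factor was seen gave much the same order once depth was made equal by drawing 2000 UMIs from each cell, which left 408, 3569 and 3284 cells. For Sall1 the share was 31.9% (27.4 to 36.6%) in the shallow library 1, against 17.7% (16.4 to 19.0%) for library 2 and 16.3% (15.1 to 17.6%) for library 3. Maf was seen in 63.7% (58.9 to 68.4%), 46.9% (45.3 to 48.6%) and 37.2% (35.6 to 38.9%), and Mef2a in 67.4%, 49.2% and 51.9%. Before thinning the deeper libraries lead instead: Sall1 was seen in 31.9%, 45.7% and 40.5% of all cells, Maf in 66.2%, 82.4% and 71.9%, and Mef2a in 70.4%, 86.5% and 85.6%.

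Mef2c was seen in most cells at equal depth, 87.5%, 82.3% and 86.1%, and in 87.2%, 98.9% and 99.1% of all cells without thinning. Runx1 was seen in 20.6%, 20.99% and 34.2% (23.0%, 51.1% and 67.1% unthinned), so that library 3 led on both scales. Cebpa was seen in 39.0% (34.2 to 43.9%), 23.0% (21.7 to 24.4%) and 44.0% (42.3 to 45.7%), or 40.4%, 54.5% and 76.8% unthinned, and the intervals of libraries 1 and 3 overlap at equal depth. Bhlhe41 was seen in 30.6%, 27.8% and 26.3% (31.7%, 60.8% and 58.2% unthinned), and the intervals of all 3 libraries overlap at equal depth.

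**Figure D2:**
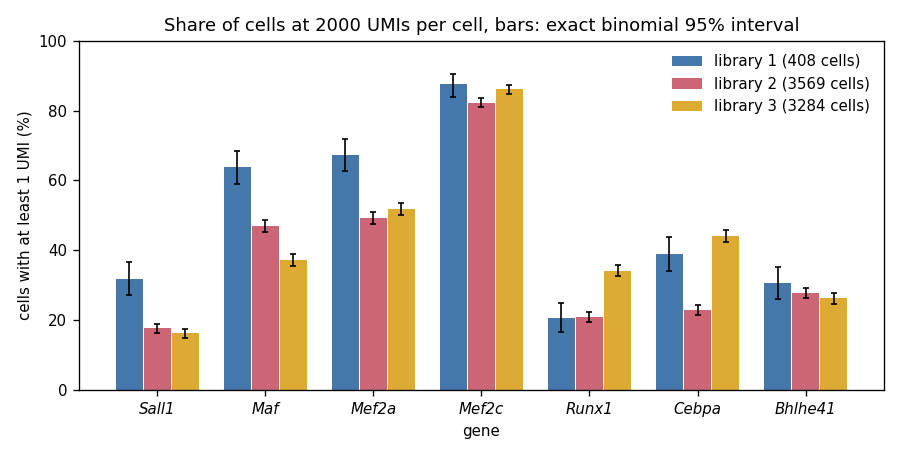
Share of cells with at least 1 UMI of each factor after every cell was thinned to 2000 UMIs, by library, with exact binomial 95% intervals. Maf and Mef2a are seen most often in library 1 and Runx1 in library 3, while the bars of Cebpa in libraries 1 and 3 overlap.

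A low share at this depth does not mean that the other cells lacked the transcript. In the 424 cells of library 2 with at least 10000 UMIs, Mef2c was found in 100% and Mef2a in 96.7%, Maf in 93.9%, Bhlhe41 in 84.2%, Runx1 and Cebpa in 71.9% each, and Sall1 in 67.2%. The 124 such cells of library 3 gave 100%, 96.8%, 89.5%, 79.0%, 89.5% (Runx1), 88.7% (Cebpa) and 71.0%, in the same order of genes. Each factor was therefore found in at least 67.2% of the deepest cells of both libraries, and library 1 had 0 cells of that depth.

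Counted together, a cell at equal depth showed 3.41 ± 1.24 of the 7 factors in library 1 (SD over 408 cells), 2.68 ± 1.17 in library 2 and 2.96 ± 1.21 in library 3. The median was 3 in each library. At least 5 factors were seen in 18.9%, 6.05% and 10.7% of the cells, and none in 2, 70 and 33 cells. If the factors were seen independently of each other, the SD would be 1.18 in library 1, close to the 1.24 found. For the 21 pairs of members, the correlation of their UMI counts over cells lay between -0.13 and 0.12 in library 1, -0.02 and 0.06 in library 2, and -0.04 and 0.04 in library 3, values too weak in counts this sparse to be read as a pattern.

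**Figure D3:**
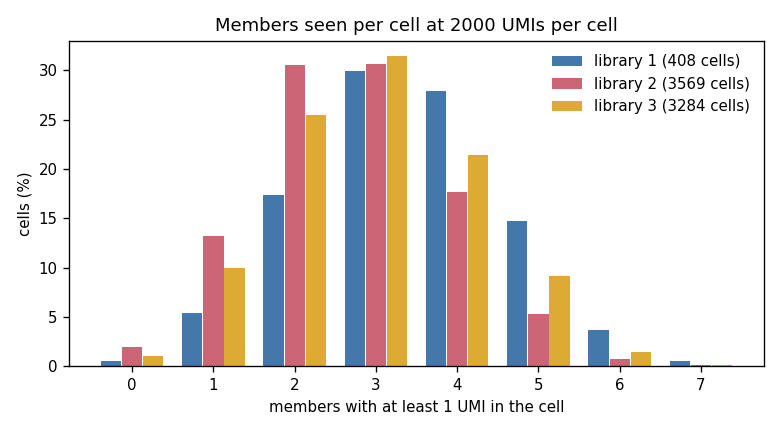
Percentage of cells (vertical axis) that showed 0 to 7 of the factors (horizontal axis) at 2000 UMIs per cell, by library. Library 1 is shifted to higher numbers, with means of 3.41, 2.68 and 2.96 in libraries 1, 2 and 3.

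Cells also differed within a library, above all in Cebpa in library 3 and in Bhlhe41 in every library. The variance of the UMIs over cells divided by their mean, which is 1 for pure counting noise, was 1.32 for Cebpa in library 3, where genes of like mean had a median of 1.02 and a 90th percentile of 1.09. In library 1 it was 0.919, and in library 2 it was 1.052, just above the 90th percentile of 1.047. Bhlhe41 had 1.29, 1.14 and 1.17 in libraries 1, 2 and 3, above the 90th percentile of like genes in each (1.19, 1.05 and 1.05). Maf in libraries 1 and 3 (1.27 and 1.12) and Runx1 in library 3 (1.11) also lay above it. For Sall1 the value was 1.02, 0.998 and 1.02, which is what counting alone gives.

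Cebpa moved with the immediate early genes among the cells of library 3. With the cells split into terciles by their early gene UMIs (medians of 37, 59 and 85 at equal depth), Cebpa was at 228 CPM in the lowest tercile (216 to 240.4), 307 in the middle tercile (294 to 320.0) and 456 in the highest (440.5 to 473). The highest tercile was 2.0 times the lowest (1.88 to 2.14), and Cebpa was seen in 35.7%, 43.9% and 52.5% of the cells at equal depth. It was the 1 member of 7 called in this library, where 1.44% of the 5900 tested genes other than the early genes were called, and 99.8% of them had a lower ratio than Cebpa.

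Runx1 leaned the same way as Cebpa by a smaller ratio, at 197, 229 and 234 CPM across the same terciles (ratio 1.19, 1.10 to 1.29), and 95.2% of the tested genes had a lower ratio. Maf went the opposite way, at 279.8, 223 and 218 CPM (0.780, 0.727 to 0.837), and 3.24% of the tested genes had a lower ratio. Sall1, Mef2a, Mef2c and Bhlhe41 had ratios between 0.923 and 1.09. Between terciles by total UMIs in library 3, the ratio of Cebpa was 1.06 (0.992 to 1.13), that of Runx1 1.20 (1.10 to 1.30) and that of Maf 0.673 (0.627 to 0.722). For Runx1 depth thus went with as wide a ratio as the early genes did, and for Maf with a wider one.

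In library 2, where early genes were low (medians of 4, 7 and 10 UMIs), the early gene ratio of Cebpa was 1.14 (1.05 to 1.249) and that of Runx1 1.14 (1.04 to 1.246), and 0 members were called beside 0.0993% of all genes. In library 1 the terciles held 136 cells each, and Cebpa had a ratio of 1.26 (0.916 to 1.75). Runx1, at 143 over 89.3 CPM, was the 1 member called (1.60, 1.01 to 2.56), beside 22.8% of all genes at these low counts. Early genes are also induced by the handling of tissue, and whether this had a part in the level of Cebpa or Runx1 was not tested.

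**Figure D4:**
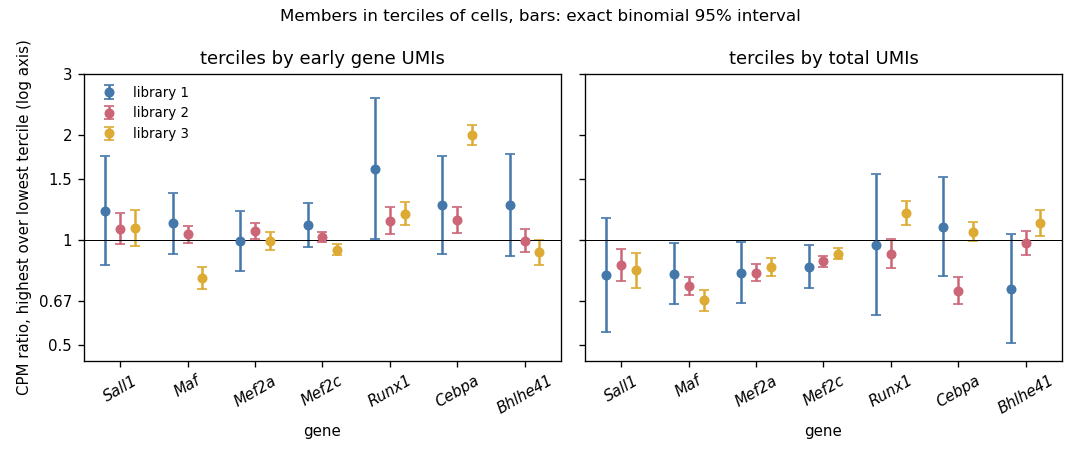
Ratio of CPM in the highest over the lowest tercile of cells (log axis) by early gene UMIs (left) and by total UMIs (right), for each factor and library, with exact binomial 95% intervals. Cebpa in library 3 stands at 2.0 in the left panel, and Maf lies below 1 in all 3 libraries in the right panel.

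Dividing cells were compared with other cells within a library, as nerve injury makes microglia divide. A cell was called dividing with at least 3 UMIs of 40 mitosis and replication genes at equal depth, other with 0, and in between with 1 or 2. Library 2 had 1870 dividing and 280 other cells and library 3 had 147 and 1720, whereas library 1 had 7 dividing cells and was not compared. By replication genes alone, 814 cells of library 2 and 127 of library 3 reached 3 UMIs, and by mitosis genes alone 780 and 5. The dividing class of library 3 thus rested mainly on replication genes. Its mean was 3.70 UMIs of the 40 genes, close to the cutoff, against 5.25 in library 2. How many of its cells reached 3 UMIs by counting error was not tested.

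None of the 7 factors passed 1.5-fold between dividing and other cells in either library. Of all genes tested, 3.79% passed it in library 2 and 3.19% in library 3. The factors leaned the same way all the same: 7 of 7 ratios were below 1 in library 2, where 47.2% of all genes were, and 5 of 7 in library 3, where 46.2% were. The median log2 ratio of the members was -0.16 and -0.14, against 0.01 and 0.02 for all genes.

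Maf was at 337 CPM in other, 327 in in-between and 285 in dividing cells of library 2, a ratio of 0.848 (0.776 to 0.927), and at 247, 230.5 and 211 CPM in library 3 (0.851, 0.737 to 0.979). Mef2a was at 364, 347 and 326 CPM in library 2 (0.895, 0.823 to 0.975) and at 371, 353 and 309 in library 3 (0.833, 0.740 to 0.935). Cebpa was at 134, 138 and 115 CPM in library 2 (0.861, 0.749 to 0.994) and at 340.5, 337 and 265 in library 3 (0.777, 0.684 to 0.880). For these 3 genes the interval lay below 1 in both libraries, so each was modestly lower in the dividing class when depth was not matched. The class is not alike in the 2 libraries, as that of library 3 held mainly cells with replication genes.

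Sall1 had ratios of 0.874 (0.746 to 1.03) and 0.945 (0.749 to 1.18), Runx1 of 0.981 (0.845 to 1.14) and 0.907 (0.783 to 1.05), and Mef2c of 0.95 (0.901 to 1.002) and 1.02 (0.952 to 1.08). Bhlhe41 lay on different sides of 1, at 0.935 (0.831 to 1.05) and 1.15 (0.989 to 1.33). A difference for these 4 genes was not detectable beyond counting error in either library. At equal depth, dividing cells showed a mean of 2.61 factors and other cells 2.77 in library 2, and 2.86 and 2.98 in library 3.

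Depth ran along with this class as well, at a median of 6630.5 UMIs in dividing and 5770 in other cells of library 2, and 6564 and 5610 in library 3. Among cells of 4000 to 8000 UMIs, the median depth was 5762.5 in 1106 dividing and 5710 in 221 other cells of library 2. In library 3 it was 6230.5 in 96 dividing and 5653 in 1346 other cells, so dividing cells stayed deeper there. In this range the ratios of Maf were 0.900 and 0.808, those of Mef2a 0.973 and 0.855, and those of Cebpa 0.878 and 0.763. The ratio of Mef2a in library 2 thus came close to 1. No intervals were computed for this range, so whether these ratios lay beyond counting error is not known. In the other cells alone, the comparison of libraries gave like values, with Cebpa 2.55 times and Runx1 1.96 times higher in library 3 than in library 2, and Maf 1.72 times and Sall1 1.82 times higher in library 1 than in library 2. Cells called dividing or in between, 52.4% and 39.8% of library 2 at equal depth, were left out of these last values. Library 2 entered them with 280 other cells, or 7.85%. Other cells are those in which no mitosis or replication gene was seen at equal depth. Whether dividing cells missed at that depth were among them was not tested.

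**Figure D5:**
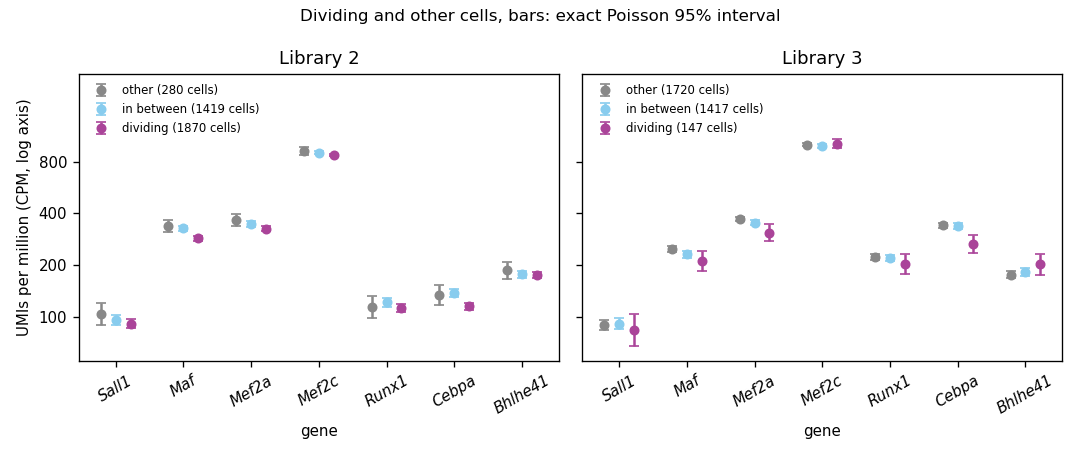
Level of each factor, in UMIs per 1000000 on a log axis, in other, in-between and dividing cells of library 2 (left) and library 3 (right), with exact Poisson 95% intervals. No factor differs by 1.5-fold between dividing and other cells, and Maf, Mef2a and Cebpa are lower in dividing cells of both libraries.

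Most close relatives of the 7 factors were too low for their ratios to be called. Of 17 relatives in the Sall, Maf, Mef2, Runx, Cebp and Bhlhe families 16 were in the table, 2 of them with 0 UMIs. Over all cells, 6 reached 20 CPM. Between libraries 1 and 3, 1 of these 6 was higher in library 1 and 1 lower, beside 14.3% and 12.8% of all genes. Between libraries 3 and 2, 0 were higher and 1 lower, beside 3.34% and 4.54%. Between libraries 1 and 2, 0 were called, beside 12.9% higher and 14.2% lower. Some relatives below 20 CPM also passed 1.5-fold and were not called. Cebpb, a basic leucine zipper factor of inflammatory gene induction, was at 243, 273 and 405 CPM in libraries 1, 2 and 3, and library 1 was 0.601 times library 3 (0.536 to 0.671). Cebpg, a family member that dimerizes with the others, was at 235, 213 and 139.5 CPM, lowest in library 3, where Cebpa was highest. Library 3 was at 0.655 times library 2 (0.625 to 0.686) and library 1 at 1.69 times library 3 (1.5 to 1.9).

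Of 15 factors that work beside the members in microglia or other macrophages (Spi1, Irf8, Smad3 and others), 9 reached 20 CPM. Among these 9 only Zfhx3, a large homeodomain and zinc finger factor, was called. It was at 478 CPM in library 1, 235 in library 2 and 258 in library 3. Library 1 was 2.04 times library 2 (1.87 to 2.21) and 1.85 times library 3 (1.70 to 2.01). The order of libraries in Zfhx3 was that of Mef2a. Of all genes, 12.9% and 14.3% were higher in library 1 than in libraries 2 and 3, so 1 of 9 does not set the partner factors apart. Between dividing and other cells, 0 of the relatives and 0 of the partner factors that could be compared passed the fold. Of all genes, 3.79% passed it in library 2 and 3.19% in library 3.

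Across the 8 groups of library and class with at least 50 cells, which share their libraries, the log2 level of Sall1 went with that of Mef2a (Pearson r 0.97) and Maf (0.96), and that of Runx1 with Cebpa (0.76). Mef2c went about as closely with Mef2a (0.75) as with Cebpa (0.73), and Maf ran against Runx1 (-0.75). The members thus did not fall into separate sets. Among 6017 genes, those nearest in pattern were Rps27rt, Pmepa1 and Tmbim6 for Sall1 (r of 0.995 or more), Lst1, Sepp1 and Il6st for Maf, and Hpgd, Timm21 and Fam105a for Mef2a. Plek, Sipa1 and Gimap6 were nearest to Mef2c, and Pnrc1 and Ddx5 to Cebpa. Runx1 was nearest to Rgs1, Jund and Junb, of which the last pair are early genes. For Bhlhe41 the nearest were Adh5, Maea and Twistnb, at a lower r of 0.92 to 0.93. With so few groups, r mostly reflects the order of the 3 libraries.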

How the data were processed

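The authors deposited UMI counts per gene and cell, without normalization, as 1 joint matrix of 3 libraries. The submitters' processing notes name Cell Ranger 2.1.1 and mm10. The reagent kit is version 3.1 in the labels and 3 in the methods. The 7 factors and all gene lists were chosen with earlier results of these data known.

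Per the methods doublets were excluded in the sort, and no doublet caller was run here. Barcodes shared between libraries number 25 sequences in 51 cells. All 7522 cells were used. Levels are summed UMIs per 1000000 (CPM) with exact Poisson intervals, shares have exact Clopper-Pearson intervals, and ratios have exact conditional binomial intervals, all covering counting error only. Cells were thinned to 2000 UMIs without replacement (seed 1), which left out 201, 22 and 38 shallower cells. Total depth was 1343055, 24097543 and 19769170 UMIs in libraries 1, 2 and 3. Each library pools 3 animals and has no replicate, so no p-value was computed. Between libraries, all genes of at least 20 CPM over all 7522 cells gave the background of 1.5-fold calls. Between classes or terciles, the filter of 20 CPM was set over the cells compared. The mitosis and the replication list hold 20 genes each. A family or partner gene is named with values if it reached 20 CPM and passed 1.5-fold in a comparison; the others are only counted. The 3 genes of highest correlation with each member, on log2(CPM + 1), are named, except where a gene is not reported here.

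Motifs were counted in the 250 bases before RefSeq starts (GRCm38.p6). The motif list was written after the windows were seen, and 6 of the 7 factors have a window. The ratio and thinning steps were tested on simulated data. Alternatives were other scalings, cell filters, depths, thresholds and Seurat phases. Tools were Python 3.11.15, numpy, scipy, R 4.3.3 and Seurat 5.3.0.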

Additional observations from a re-analysis of the deposited data

How the results depend on the processing

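No paired analysis was possible because each suffix is 1 library without replicates and no test was run. With a fold of 2 in place of 1.5, 0 members were called between libraries 1 and 2 (4 at 1.5), 2 between libraries 1 and 3 (4 at 1.5) and 1 between libraries 3 and 2 (2 at 1.5). In cells of 2000 to 3500 UMIs, an alternative chosen after the data were seen, 1 member (Cebpa) was called between libraries 3 and 2. The member counts at these settings are to be read beside the counts over all genes in the next paragraph. The number of members with their highest share of cells in library 1, 2 and 3 was 5, 0 and 2 at 2000 UMIs, 0, 4 and 3 without thinning, and 0, 2 and 5 at 4000 UMIs, where library 1 had 9 cells left. With another random seed it was 4, 1 and 2, Bhlhe41 being the gene that changed library. Thinning to 4000 UMIs raised the mean number of factors per cell to 3.95 in library 2 and 4.34 in library 3, as its construction implies. Of 189 recomputed ratios of members between libraries, 152 stayed within the interval of the reported value, as did 110 of 112 ratios of dividing over other cells, and no called ratio changed direction.

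Counts over all genes moved more. Of 6018 genes, the number past 1.5-fold was 1630, 1630 and 474 for libraries 1 over 2, 1 over 3 and 3 over 2. With a filter of 5 CPM it was 3070, 3129 and 1085 of 9440 genes. With a fold of 2 it was 464, 468 and 188 of the 6018 genes. In cells of 2000 to 3500 UMIs it was 1381 of the 6018 genes for library 3 over library 2. Calls were thus common among all genes at these low counts, and the call of Cebpa there stands beside them. Size factors gave library 1 a factor 1.12 per UMI relative to library 2. Between libraries 1 and 3 they took Mef2a below the fold (1.46) and Cebpa past it (0.624). Mef2c and Bhlhe41 moved to 0.992 and 0.970 there. Dividing cells of library 3 numbered 18 from 5 UMIs and 5 by mitosis genes alone, too few to compare. Each library is a single pool, so the spread between animals is unknown, and time, batch and library cannot be told apart.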
